A study of Mus musculus with 6 samples.

Results

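Polyoma middle T antigen (PyMT) acts through proteins of the host cell, and the 9 genes described here encode the proteins that bind it or act directly under it: Src, Shc1, Pik3ca, Pik3cb, Pik3r1, Akt1, Akt2, Ppp2r1a and Ywhaz. They were taken as a list of named genes, not by a cut on their measured values, though earlier results of these data were known. The list comes from 47643 genes counted in RNA of EPCAM-positive cells sorted from 6 mammary tumors. The tumors arose in MMTV-PyMT mice of strain FVB/N-Tg(MMTV-PyVT)634Mul/J, which carry PyMT under the mouse mammary tumor virus promoter, active mainly in mammary epithelium. All had received B20-4.1.1, an antibody that blocks VEGF-A of mouse and human, at 5 mg/kg, 2 injections a week for 6 weeks from an age of 7 weeks. The labels number the 6 samples without tying each to a mouse, so their spread may be in part technical. No untreated tumor is analysed here, and the labels do not say which tumor belonged to which hypoxia class, so the values describe treated tumors and the spread among them.

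PyMT is a viral protein anchored in the membrane that has no enzyme activity of its own. It holds the scaffold and catalytic subunits of protein phosphatase 2A (PP2A), and in that complex it binds Src family kinases, which then phosphorylate it on tyrosines. Those tyrosines dock Shc1, which passes the signal to Ras and the MAP kinases, and the p85 subunit of phosphoinositide 3-kinase (PI3K), whose lipid product activates the Akt kinases. 14-3-3 proteins bind PyMT through a phosphorylated serine. Much of this signaling lies in protein binding and phosphorylation, which a read count does not measure. RNA of the PyMT transgene was not analysed here.

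The libraries were made from the 3′ ends of polyadenylated RNA, and positions below are those of GENCODE M21 on GRCm38. In the last 300 bases of the 9 genes, 0% of 50-base windows lay in a transcript of another gene. Counts assigned to genes ranged from 2509482 to 5893246 per tumor, with a median of 4854788.5, and levels are given in CPM, counts scaled to a library total of 1000000. A level of 3 counts, the limit that a count of 0 allows, was 0.509 to 1.20 CPM depending on the tumor, and every member lay well above it in all 6 tumors. In the sorted cells, Epcam was at 611 to 972 CPM and the summed luminal markers were at 3957 to 4874 CPM. The summed basal epithelial markers were at 502 CPM in tumor 5 and 131 to 286 CPM elsewhere. The summed markers were at 1.59 to 4.12 CPM for endothelial cells, 15.1 to 25.9 CPM for fibroblasts and 104 to 297 CPM for immune cells. Ptprc, the gene of CD45, was at 0.797 to 3.39 CPM, so other listed genes made up nearly all of the immune sum. In tumor 4, where that sum was 246 CPM, Lyz2, Csf1r and C1qa were at 3.19, 1.49 and 1.70 CPM. The erythroid markers summed to 864 CPM in tumor 3, above Epcam there (810 CPM), and to 5.66 to 69.4 CPM elsewhere. Across all genes, tumor 1 stood apart, with a median correlation of 0.788 with the other tumors over log2 CPM, against 0.905 to 0.939 for the rest, so ratios are also given without it. Also in tumor 3, the myeloid gene Lyz2 was at 148 CPM, against 3.19 to 24.6 CPM elsewhere. In bulk RNA, fewer cells of a type and less RNA per cell cannot be told apart.

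All 9 genes were detected in every tumor, and Pik3r1 had the highest median level and Src the lowest on either scale. Divided by exon length and scaled to the same total (TPM), Pik3r1 had the highest median, 171 TPM, with a range of 115 to 229 TPM. Ywhaz followed at 129 TPM (114 to 190 TPM), Ppp2r1a at 88.6 TPM (71.1 to 216 TPM) and Akt1 at 60.6 TPM (46.1 to 66.0 TPM). The other 5 lay close together at medians of 11.1 to 15.0 TPM: Pik3cb, Shc1, Pik3ca, Akt2 and, lowest, Src. The ranges of Pik3r1 and Ywhaz overlapped, as did those of Ywhaz and Ppp2r1a, while every tumor had more Akt1 than any of the 5 lower genes on the TPM scale. Within the lower 5, each gene's range overlapped that of its neighbour, so their order is not resolved. A 3′ library places its reads near the end of the transcript whatever its length, so the division mainly reweights genes by length. In CPM the medians ran from 18.8 for Src to 691 for Pik3r1.

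**Figure D1:**
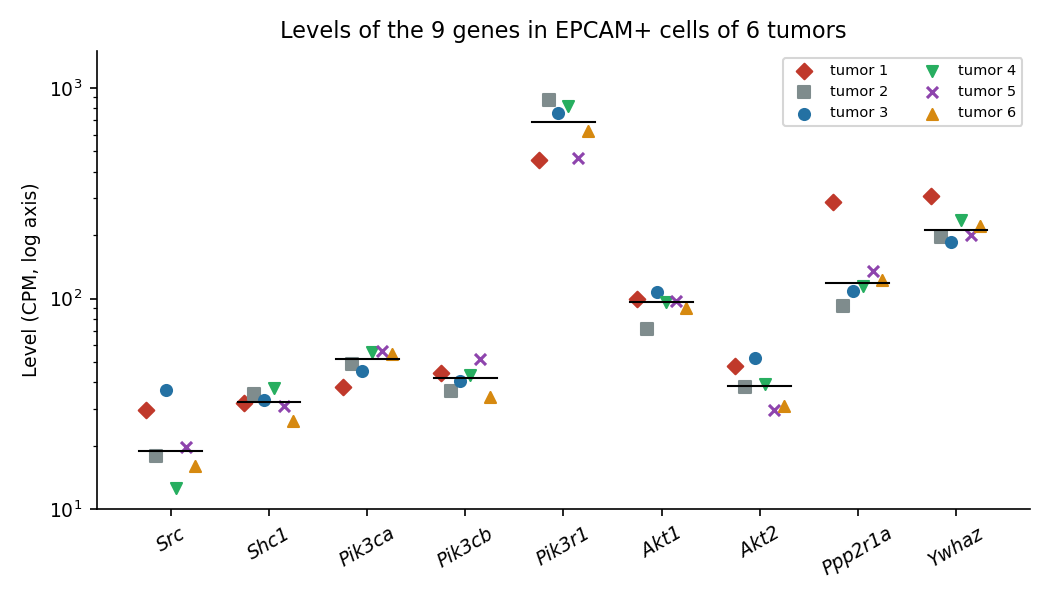
Level of each of the 9 genes in each of the 6 tumors, in CPM on a log axis, with a line at the median. Pik3r1 lies highest, Src lowest, and tumor 1 lies above the other tumors for Ppp2r1a and Ywhaz.

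Most of the 9 genes varied less among the tumors than the typical gene. The spread was measured as the highest level over the lowest after TMM scaling, which corrects library size for composition. That ratio was at least 2 for 3 of the 9 genes, against 68.9% of the 12088 genes tested. Without tumor 1 it was at least 2 for 1 of the 9, Src, against 43.4% of genes. The median ratio was 1.69 over the 9 genes and 2.46 over all genes tested. These comparisons are not matched for level. Against the 1000 genes nearest in level, edgeR's estimate of spread, described below for Shc1, was higher than in 78.6% for Ppp2r1a. That share was 66.1% for Src and 46% for Pik3r1, and 1.7 to 20.8% for the other members. The steadiest were Shc1, with a ratio of 1.28, and Pik3cb and Akt1, each with 1.36, and the widest were Ppp2r1a at 2.94, Src at 2.83 and Pik3r1 at 2.06.

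**Figure D2:**
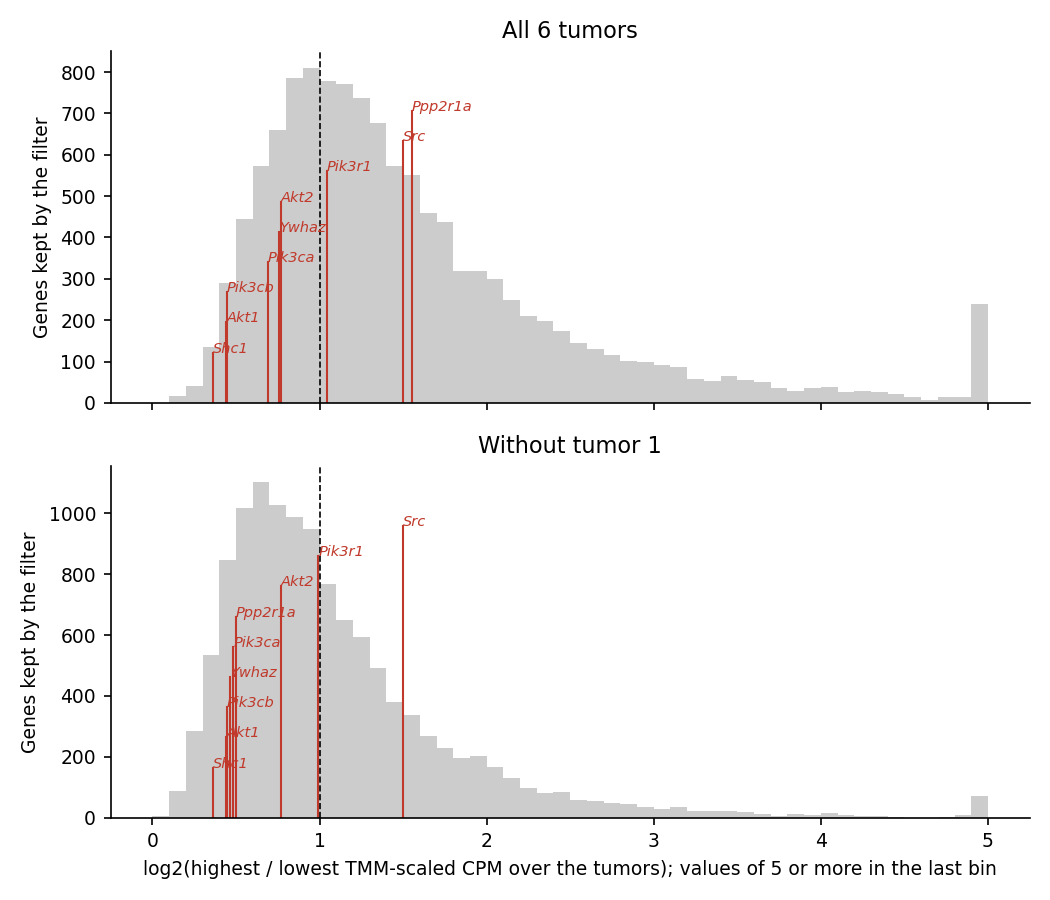
Histogram over all 12088 genes tested of log2 of the highest over the lowest TMM-scaled level (x axis) and the number of genes (y axis), over 6 tumors and without tumor 1, with red lines at the 9 genes, whose heights carry no value, and a dashed line at a ratio of 2. The ratio of Ppp2r1a falls from 2.94 to 1.41 when tumor 1 is left out, and that of Src stays at 2.83.

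The scaffold of PP2A was the gene most set by a single tumor. Ppp2r1a (ENSMUSG00000007564), on chromosome 17 (20945311 to 20965916, plus strand), encodes the A-alpha subunit, the surface on which PyMT takes the place of a regulatory B subunit. Its level was 288, 92.1, 108, 115, 135 and 123 CPM (tumors 1 to 6). Tumor 1 lay far above the others, which kept within a ratio of 1.41. Tumor 1 was the highest of the 6 for 2 of the 9 genes, Ppp2r1a and Ywhaz, and for 32.5% of all genes tested.

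Ywhaz (ENSMUSG00000022285), on chromosome 15 (36770770 to 36796929, minus strand), encodes 14-3-3 zeta, an adaptor for phosphorylated serine and threonine. It was at 305, 197, 186, 235, 200.5 and 221 CPM (tumors 1 to 6). Tumor 1 was again highest, and the ratio fell from 1.69 to 1.38 without it.

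Src (ENSMUSG00000027646), the founding member of its kinase family, is on chromosome 2 (157418444 to 157471862, plus strand). It was at 29.5, 17.9, 36.9, 12.5, 19.8 and 16.0 CPM (tumors 1 to 6). Tumors 3 and 1 were high and tumor 4 low, so leaving out tumor 1 did not narrow the range, while leaving out tumor 4 brought the ratio to 1.98. These levels rest on 45 to 174 counts a tumor, the thinnest of the 9 genes. Tumor 3 also had the highest summed immune markers, 297 CPM against 104 to 246 CPM elsewhere, and the highest erythroid sum, and the part of these in the Src level was not tested. Without tumor 3 the ratio was 2.33.

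Shc1 (ENSMUSG00000042626), on chromosome 3 (89418443 to 89430027, plus strand), encodes the adaptor that carries Grb2 to phosphorylated PyMT. It was the steadiest of the 9 genes, at 31.9, 35.1, 33.0, 37.6, 30.9 and 26.2 CPM (tumors 1 to 6). No tumor stood apart for it. The biological coefficient of variation of Shc1 was 0.255 in edgeR, which estimates replicate spread after counting error. That estimate is drawn toward the trend over all genes, so it is not the spread of Shc1 alone. Only 0.571% of all genes tested had an estimate as low or lower, Shc1 itself included. Of the 1000 genes nearest to Shc1 in level, 1.7% had a lower estimate.

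PI3K binds PyMT through its p85 regulatory subunit, and the regulatory gene was far above the catalytic genes. Pik3r1 (ENSMUSG00000041417), on chromosome 13 (101680563 to 101768217, minus strand), encodes p85-alpha and shorter forms from internal starts, which a 3′ count sums. It was at 453, 877, 756, 824, 467 and 626 CPM (tumors 1 to 6). Tumors 2, 3 and 4 were high and tumors 1 and 5 low, and the ratio was 1.99 without tumor 1. Tumor 1 was the lowest of the 6 for Pik3r1 and Pik3ca, 2 of the 9 genes, and for 31.0% of all genes tested.

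Pik3ca (ENSMUSG00000027665), on chromosome 3 (32397671 to 32468486, plus strand), encodes the catalytic p110-alpha. Its level was 38.2, 49.0, 45.3, 55.9, 56.5 and 54.5 CPM (tumors 1 to 6). Pik3cb (ENSMUSG00000032462), on chromosome 9 (99036654 to 99140621, minus strand), encodes p110-beta, and was at 44.1, 36.3, 40.7, 43.2, 51.9 and 34.0 CPM (tumors 1 to 6). Tumor 1 was lowest for Pik3ca and near the top for Pik3cb. Pik3ca made up 46.4% of the counts of the pair in tumor 1 (exact 95% binomial interval 41.9 to 50.9%) and 61.6% in tumor 6 (56.9 to 66.1%), so these 2 tumors differed beyond counting error, which is all that the interval covers. The level of Pik3r1 over the sum of both catalytic genes was 5.50, 10.3, 8.78, 8.31, 4.31 and 7.08 (tumors 1 to 6) on the CPM scale, and 3.45 to 8.34 on the TPM scale. The regulatory gene thus exceeded the catalytic pair in every tumor on both scales.

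Akt1 and Akt2 encode kinases that PI3K activates. Akt1 (ENSMUSG00000001729), on chromosome 12 (112653821 to 112674884, minus strand), was at 99.9, 71.7, 107, 95.9, 97.4 and 90.6 CPM (tumors 1 to 6). Tumor 2 alone was low, and without it the ratio fell from 1.36 to 1.07. That library had the fewest counts of the 6, 2509482, and the largest part of reads with no gene, 41.4%. The part of these in the Akt1 level was not tested. Akt2 (ENSMUSG00000004056), on chromosome 7 (27591552 to 27640826, plus strand), was at 48.0, 37.9, 52.1, 39.1, 29.6 and 31.0 CPM (tumors 1 to 6). Tumors 3 and 1 were high for Akt2, as they were for Src, and tumors 5 and 6 low. Tumor 3, with its high erythroid sum, was the highest for both, and without it the ratios were 1.34 for Akt1 and 1.62 for Akt2. A gap between the extreme tumor and the next, as a share of the range, past the 95% critical value of Dixon's test for 6 values was met by 2 of the 9 genes, Akt1 and Ppp2r1a, and by 15.1% of all genes tested.

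Most of the effectors have close relatives, and the share among them had its largest SD for Src, 9.56 percentage points, against 1.63 to 5.25 for the other 4 genes. Pik3r1 took a median of 92.7% of the counts of Pik3r1, Pik3r2 and Pik3r3 (86.6 to 94.1%), with tumor 1 lowest. Ppp2r1a took 84.5% of the pair Ppp2r1a and Ppp2r1b (80.1 to 92.2%), although the annotated 3′ end of Ppp2r1b lies within the transcripts of Sik2, and Ywhaz took 9.97% of the 7 14-3-3 genes (8.41 to 12.9%). Src took between 10.6% in tumor 4 (exact interval 8.18 to 13.5%) and 37.6% in tumor 1 (33.2 to 42.2%) of the counts of Src, Yes1, Fyn and Lyn, with a median of 19.9%. Those 4 are the family members of epithelial cells, and in tumor 1 Yes1 and Fyn were each at 2.71 CPM, the lowest of the 6 tumors for both. Lyn, which leukocytes also express, had the highest level of the 4 in all 6 tumors on the TPM scale, at 24.9 to 46.8 TPM.

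**Figure D3:**
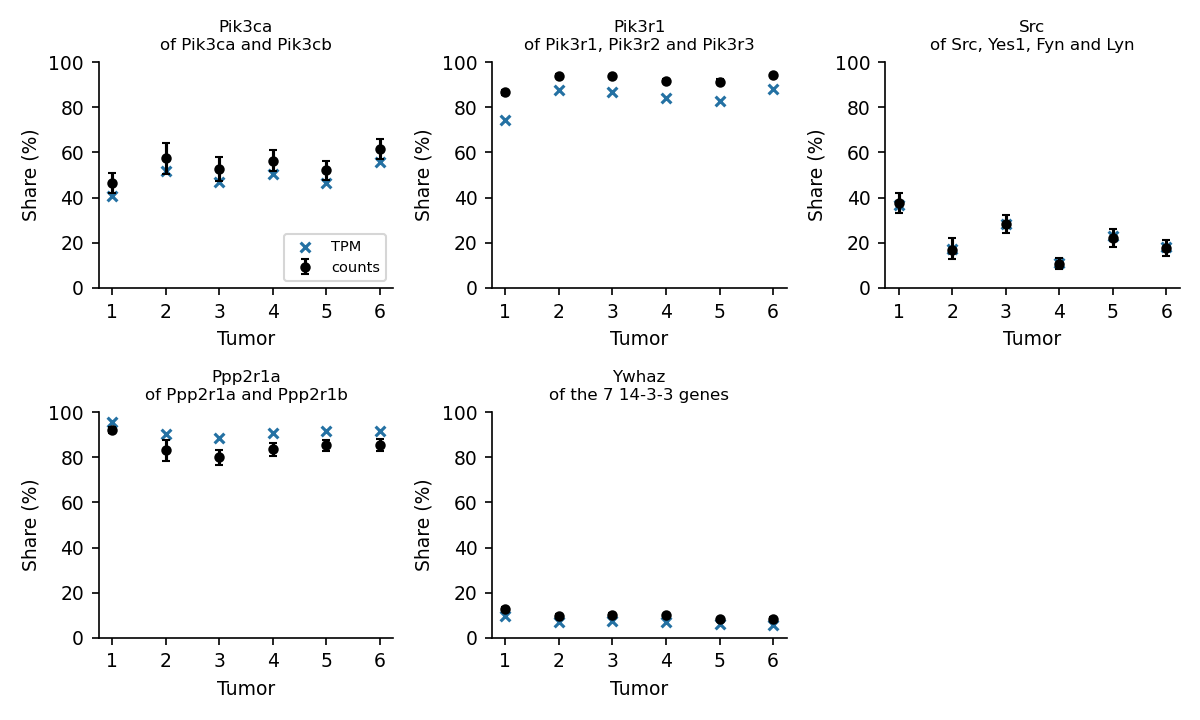
Share of each gene among its close relatives, in percent of their summed counts, per tumor, with exact 95% binomial intervals that cover counting error (points), and in percent of their summed TPM (crosses). By counts, the Src share runs from 10.6% in tumor 4 to 37.6% in tumor 1.

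The wider pathway was followed with 90 genes in 10 lists, of which 81 passed the filter on low counts. A ratio of at least 2 was met by 48 of the 81 (68.9% of all genes tested), and by 27 without tumor 1 (43.4% of all genes). Tumor 1 was highest for 27 (32.5% of all genes) and lowest for 27 (31.0% of all genes). The counts list by list below stand against the same shares of all genes, as descriptions, and no list was tested as a set. The 9 genes left out for low counts included the lymphocyte kinase gene Lck, the leukocyte PI3K gene Pik3cd and Inpp5d.

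Of the 7 genes in the list of Src family kinases and their regulators, 5 had a ratio of at least 2 and 2 kept it without tumor 1. Csk, the kinase that phosphorylates the inhibitory tail of Src, was at 60.9 CPM in tumor 1 and 18.1 to 24.7 CPM elsewhere. Cbl, a ubiquitin ligase that turns off tyrosine kinase signaling, had the widest ratio of all 81, 29.3, and was at 3.56 CPM (21 counts) in tumor 1 and at 53.7 to 104 CPM elsewhere. Of the leukocyte relatives, 3 of 8 passed the filter and all 3 had a ratio of at least 2. Vav1, an exchange factor of blood cells, was highest in tumor 1, at 13.6 CPM, next in tumor 3 at 9.70 CPM, and at 4.10 to 7.23 CPM elsewhere.

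Among the Shc1 partners, 3 of 6 had a ratio of at least 2. Grb2, the adaptor that Shc1 brings to the membrane, kept to 108 to 142 CPM, a ratio of 1.27, while Gab1, a docking protein for PI3K, ran from 11.0 CPM in tumor 1 to 37.1 CPM in tumor 5. In the Ras and MAP kinase cascade, 5 of 10 genes had a ratio of at least 2, and 2 without tumor 1. Hras was at 125 CPM in tumor 1 and 21.1 to 26.6 CPM elsewhere. Mapk3, which encodes ERK1, kept to 198 to 249 CPM.

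Of the 7 other PI3K subunits and lipid phosphatases, 3 had a ratio of at least 2. Of 14 kinases and substrates below PI3K, 9 had that ratio and 4 without tumor 1, and Mtor was at 131 CPM in tumor 1 against 67.3 to 83.7 CPM elsewhere. Of 11 other PP2A subunits, 7 had that ratio and 2 without tumor 1. The catalytic gene Ppp2cb was at 391 CPM in tumor 1 and 171 to 208 CPM elsewhere, as Ppp2r1a was high there, whereas the regulatory gene Ppp2r2a was at 100.3 CPM in tumor 1 and 181 to 268 CPM elsewhere. Of the 6 other 14-3-3 genes, 4 had that ratio. Ywhab was highest in tumor 1, at 640 CPM against 316 to 378 CPM, and Ywhae lowest there, at 449 CPM against 690 to 1228 CPM.

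Of 9 feedback genes of the ERK pathway, 6 had a ratio of at least 2 and 5 without tumor 1. Dusp6, a phosphatase that ERK induces and that inactivates ERK, was at 51.9, 44.6, 137, 173, 341 and 150 CPM (tumors 1 to 6). Its ratio was 7.21, the same without tumor 1, and 3.67 without tumor 5. Of 8 FOXO targets, which Akt represses by holding FOXO factors in the cytoplasm, 3 had a ratio of at least 2 with and without tumor 1. Irs2 kept to 55.8 to 98.7 CPM, while Ccng2 ran from 5.43 CPM in tumor 1 to 63.1 CPM in tumor 5.

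In tumor 1, and with the other sign in tumors 4 and 5, gene levels moved with the base composition of the transcript. Across 8854 genes at a mean of 10 CPM or more, the Spearman correlation between the percent of G and C in the longest transcript and log2 of tumor 1 over the median of the others was 0.431, against -0.36 to 0.15 for the same measure of each other tumor. Over the 81 of the 9 genes and pathway genes at that level it was 0.581, with all points read from the same libraries. Ppp2r1a (54.8% G and C) was higher in tumor 1 by 1.30 on the log2 scale and Src (59.3%) by 0.60, while Pik3ca (41.2%) fell by 0.55 and Pik3r1 (44.9%) fell by 0.70 on that scale. Akt1, the richest of the 9 at 59.7%, differed by 0.03, and Ywhaz, at 45.6%, was higher by 0.54. The part of base composition in these levels was not tested.

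**Figure D4:**
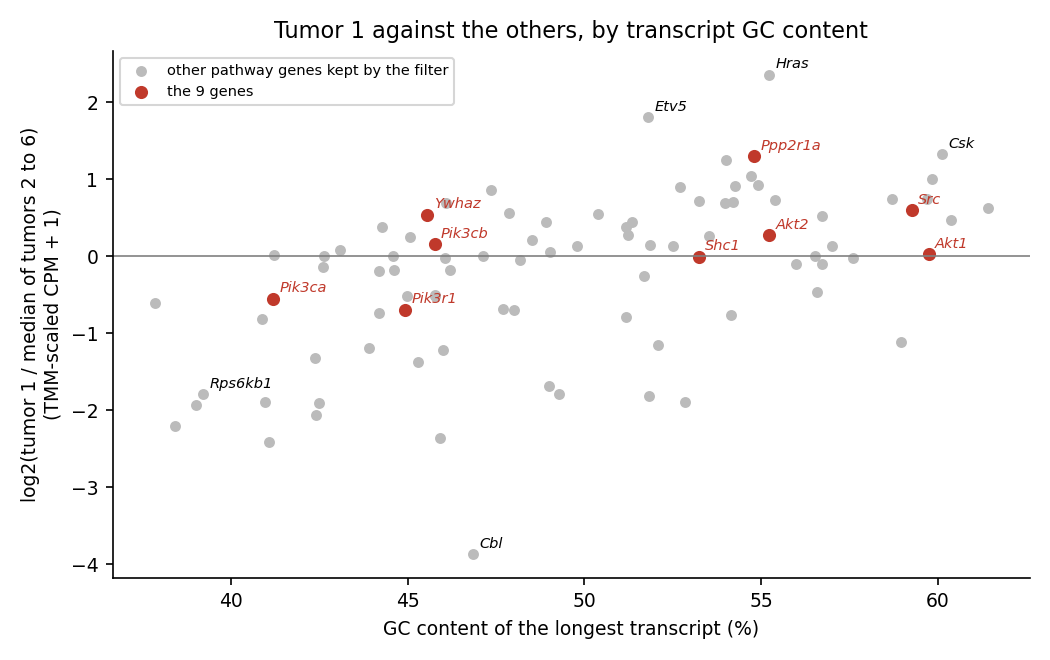
Percent of G and C in the longest transcript of a gene (x axis) against log2 of its level in tumor 1 over the median of the other tumors (y axis), for the 9 genes (red) and the pathway genes that passed the filter (grey). Ppp2r1a lies at 1.30 and Pik3r1 at -0.70 on the y axis.

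Whether the effectors followed hypoxia was the question the study's design allows here without the class of each tumor. The score, the mean of Vegfa, Slc2a1 and Car9, was 48.5, 37.2, 51.4, 76.6, 94.4 and 47.3 TPM (tumors 1 to 6). The slope of each gene on log2 of that score was fitted over all genes with edgeR's quasi-likelihood test and Benjamini-Hochberg adjustment. No gene of the 9 passed an adjusted p of 0.05, and 0% of the 12088 genes tested did (0 genes, with 512 at an unadjusted p under 0.05, and 15 passing with DESeq2).

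The slopes of the 9 genes per doubling of the score ran from -0.39 for Src to 0.29 for Pik3cb on the log2 scale. That of Src had an SE of 0.47 and a 95% interval of -1.45 to 0.67, and that of Shc1, closest to 0 at -0.01, an interval of -0.68 to 0.65. The adjusted p of the 9 was 0.954 to 0.997 in edgeR's quasi-likelihood test. No slope was detected for any of the 9, and each interval holds slopes of either sign, so a steady level is not shown either. The sample identifiers carry 2 prefixes in the labels, 1 for tumors 2 and 3 and another for the rest, whose meaning is not given. With the prefix as a second term, the slope of Ppp2r1a moved from -0.15 to -0.66, that of Ywhaz from -0.11 to -0.43, that of Src from -0.39 to -0.18 and that of Pik3r1 from -0.35 to -0.11. The adjusted p of the 9 in edgeR's test was then 0.889 to 0.976. On counts simulated at these depths, with a slope of 2 given to 200 genes, 41.5% of those genes were called.

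None of the 81 pathway genes passed the adjusted threshold either. At an unadjusted p under 0.05 there were 4, all with positive slopes. Dusp6 had a slope of 1.72 (SE 0.49) per doubling, with an unadjusted p of 0.00632 and an adjusted p of 0.954 in edgeR's quasi-likelihood test, and 0.223 to 1 over the alternative settings. Its 3 highest tumors included the 2 with the highest scores, 4 and 5, and the unadjusted p was 0.106 without tumor 5. Tumor 5 also had the highest summed basal epithelial markers, 502 CPM against 131 to 286 CPM elsewhere. The part of that in the slope of Dusp6 was not tested. Dusp4 had a slope of 1.01, and Cip2a, an inhibitor of PP2A, one of 0.95.

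**Figure D5:**
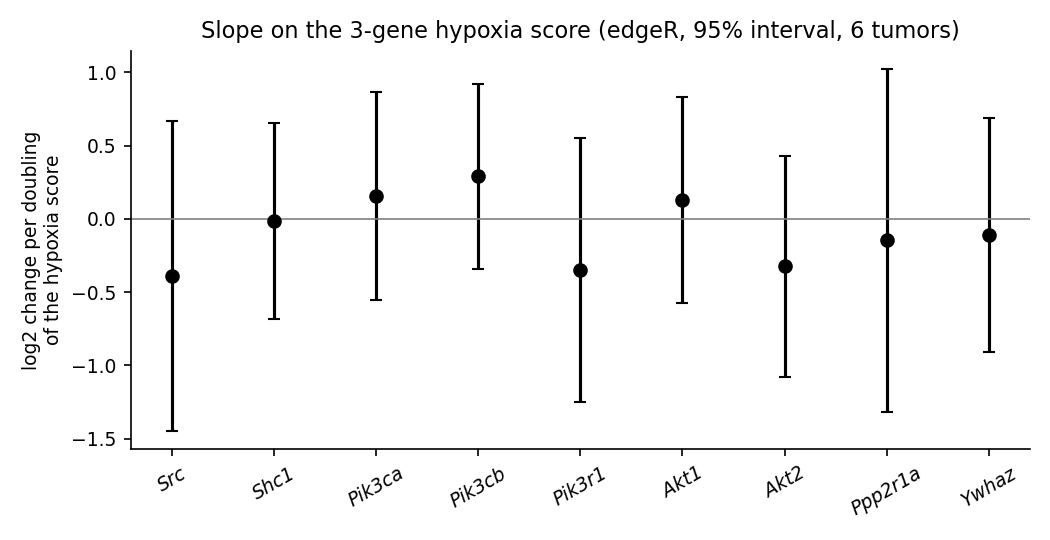
Slope of each of the 9 genes on the hypoxia score, as log2 change in level per doubling of the score, with 95% intervals from edgeR. Every interval spans 0.

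The genes whose tumor-to-tumor pattern lay closest to each member were found by the root mean square difference of their centred log2 levels over the 6 tumors, among 8860 genes. For Src they were Hhipl2 at 0.13 and Sox12 at 0.16, a looser likeness than for the other members. Ppp2r1a had H2afz at 0.05 and Rpp25l at 0.06, Pik3r1 had Rad54l2 at 0.07 and Tbc1d4 at 0.08, and Shc1 had Tsg101 at 0.05. Among the 9 themselves Pik3cb and Akt1 were closest, at 0.19, and Pik3r1 and Ppp2r1a farthest apart, at 0.85. Such a difference also depends on the spread of each gene, so 2 steady genes lie close whatever their pattern. The ratio of highest to lowest was 1.36 for Pik3cb and for Akt1, 2.06 for Pik3r1, 2.83 for Src and 2.94 for Ppp2r1a.

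Promoter sequence is shown for the 3 genes with the widest ratios. RefSeq windows in GRCm38.p6, from 250 bases before to 50 after a start, were matched for 8 of the 9 genes (14 windows), and Ywhaz is named only. Capitals mark ACGTG or GCGTG on either strand, the letters shared by sites that hypoxia-inducible factors bind. The Src window is chr2:157424043-157424342 (plus strand), at a start inside the gene span given above. The Ppp2r1a window is chr17:20945204-20945503 (plus). Pik3r1 has 2, chr13:101768168-101768467 and chr13:101692581-101692880 (minus), the latter an internal start.
Src: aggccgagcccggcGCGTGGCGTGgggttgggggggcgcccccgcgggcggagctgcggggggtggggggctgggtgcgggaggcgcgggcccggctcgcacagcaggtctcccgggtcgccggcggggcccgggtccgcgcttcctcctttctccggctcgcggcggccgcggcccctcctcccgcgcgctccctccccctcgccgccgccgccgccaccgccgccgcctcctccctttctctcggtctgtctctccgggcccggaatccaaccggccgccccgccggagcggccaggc
Ppp2r1a: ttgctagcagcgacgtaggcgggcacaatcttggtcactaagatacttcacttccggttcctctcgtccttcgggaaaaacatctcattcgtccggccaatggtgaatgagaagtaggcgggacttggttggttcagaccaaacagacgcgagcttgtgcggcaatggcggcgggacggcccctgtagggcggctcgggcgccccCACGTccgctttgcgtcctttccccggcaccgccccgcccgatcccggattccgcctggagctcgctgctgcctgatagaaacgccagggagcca
Pik3r1 first window: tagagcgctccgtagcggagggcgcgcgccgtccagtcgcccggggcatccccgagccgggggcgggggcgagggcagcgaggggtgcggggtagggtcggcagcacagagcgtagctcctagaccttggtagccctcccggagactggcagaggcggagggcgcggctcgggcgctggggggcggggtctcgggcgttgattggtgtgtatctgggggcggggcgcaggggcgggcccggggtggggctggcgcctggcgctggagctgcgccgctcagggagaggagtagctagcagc
Pik3r1 second window: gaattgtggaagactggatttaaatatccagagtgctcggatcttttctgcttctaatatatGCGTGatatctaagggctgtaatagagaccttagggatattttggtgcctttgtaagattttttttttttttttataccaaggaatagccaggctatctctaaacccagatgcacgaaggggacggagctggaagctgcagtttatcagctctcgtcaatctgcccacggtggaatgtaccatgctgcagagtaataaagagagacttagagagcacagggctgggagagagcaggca
The Src window held 2 matches, and Ppp2r1a and the second Pik3r1 window 1 each. Of the 14 windows of these 8 genes, 9 held a match (64.3%), against 43.8% of the 32851 windows searched. Akt2 alone had 4 windows, and the windows were not matched for content of CG, which both runs of letters hold. No enrichment is read from these shares. A match is a run of letters, not a bound site, and the first Pik3r1 window without one says only that these letters are not in it. The 3 genes had slopes on the hypoxia score of -0.39 for Src, -0.15 for Ppp2r1a and -0.35 for Pik3r1, none past the threshold of edgeR's test. Their SEs were 0.47, 0.52 and 0.40, and with the prefix term the slopes were -0.18, -0.66 and -0.11.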

How the data were processed

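Mammary tumors of B20-4.1.1-treated mice (6 samples) were dissociated and sorted for CD45-CD31-PDGFRα-EPCAM+ cells, and 3′ libraries (QuantSeq) were sequenced. The authors trimmed reads, aligned them to GRCm38 with STAR 2.5 and counted them per gene with HTSeq, and the deposited files hold raw counts. The use of strand and molecular identifiers and the annotation release are not given in the sources used here. Reads with no gene (16.1 to 41.4% of a library) were left out. Of 47643 identifiers, 47224 were found in GENCODE M21, from which symbols, positions and lengths were taken.

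CPM were computed over all genes. Ratios between tumors used TMM-scaled CPM of the 12088 genes kept by filterByExpr (minimum count 10, total 15, group size 3). Slopes on log2 of the hypoxia score were fitted over these genes with the quasi-likelihood test of edgeR 4.0.16 in R 4.3.3, adjusted by Benjamini-Hochberg, and tested on simulated data. DESeq2 1.42.0 was an alternative, beside other scalings, other forms of the score, no filter, the identifier prefix as a term and leaving out each tumor. The labels name 6 samples of 1 group and do not say that each came from its own mouse, so p-values measure the spread between these samples. No group comparison was made. The genes followed, the pathway lists and the markers were chosen with earlier results of these data known. Named genes were the 9 members, the genes of the pathway lists, the score genes and, for each member, the 2 genes with the nearest pattern among those at a mean of 10 CPM or more. Examples within a list were chosen after their values were seen. Promoter windows of 1 chromosome were not searched, and some genes of the lists are not reported here by name. Depth sets the precision: 1 count was worth a different CPM in each tumor, and intervals on shares cover counting error only.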

Additional observations from a re-analysis of the deposited data

Results flagged for a closer look

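In 13 of 105 values compared, each over 6 tumors, the gap between the highest or lowest tumor and the next, divided by the whole range, exceeded the 95% critical value of Dixon's test for 6 values. Chance gives about 1 in 20, and over all genes tested the share was 15.1%. Among the 9 genes it was met by Ppp2r1a, highest in tumor 1 (0.787), and Akt1, lowest in tumor 2 (0.744). The share of Pik3r1 among the 3 regulatory genes was lowest in tumor 1 (0.636).

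Of the 81 pathway genes, 10 met it, against 15.1% of all genes tested, and tumor 1 was the extreme for 9 of the 10. Over all genes tested, tumor 1 was highest for 32.5% and lowest for 31.0%. How often it was the extreme among all genes past the critical value was not counted. Tumor 1 was highest for Hras (0.927), Ppp2cb (0.83), Csk (0.807), Etv5 (0.771), Gsk3a (0.716), Ywhab (0.679), Mtor (0.661) and Pik3ip1 (0.647), and lowest for Ptk2 (0.645). For Tsc1, tumor 2 was highest (0.702). Levels in tumor 1 moved with base composition (Spearman correlation 0.431), as they did with the other sign in tumors 4 (-0.36) and 5 (-0.24), and the part of that in these gaps was not tested.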

How the results depend on the processing

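The summed median level of the 9 genes was 1351 CPM, and 1608 CPM when the 10 most abundant genes were left out of the library size. Of 81 levels of single genes under other scalings or without a tumor, 75 moved by less than the SD between tumors and 6 by more, all upward and all with the 10 most abundant genes left out. The count of members with a ratio of at least 2 was 3 with TMM scaling, 2 with plain CPM and 3 with DESeq2 size factors. With TMM scaling it ranged from 1 to 3 when each tumor was left out, with 1 without tumor 1 and 2 without tumor 2 or tumor 4. Slopes past the adjusted threshold numbered 0 with edgeR, also with the geometric mean score, 15 with DESeq2 and 10 without the filter on low counts. They numbered 0 to 2 when each tumor was left out, the 2 without tumor 1. Of the 9 members none passed in any of these settings, the lowest adjusted p being 0.706 for Pik3r1 in edgeR's test without tumor 1. The sign of the slope changed in some settings for Shc1, Ppp2r1a, Akt1 and Ywhaz. By TPM in place of counts, the median shares were 48.7% for Pik3ca, 85.5% for Pik3r1, 91.1% for Ppp2r1a and 7.02% for Ywhaz. No paired analysis was possible because the tumors form 1 group. With 6 tumors and 45 to 174 counts of Src in each, small differences in Src cannot be seen.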
